A study of Homo sapiens with 9 samples.

Results

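The NRF2 target genes described here are 34 named genes of the response to oxidants and electrophiles, among them the transcription factor NRF2 itself (gene NFE2L2) and its inhibitor KEAP1. They were chosen by name, as target genes that are known to be constitutively high in A549 cells because this line carries a mutant KEAP1. Rows for 32 of the 34, out of the 19257 genes of the count table, were analysed, while NR0B1 and TRIM16L were not analysed here. The study compared 3 groups of 3 RNA-seq libraries, all labelled as A549, a human lung adenocarcinoma cell line. OGT_KO cells had received a Lenti-CRISPR-V2 plasmid against OGT, the enzyme that attaches O-GlcNAc sugars to intracellular proteins, TR11B_KO cells a plasmid of the same kind against TR11B, and NC cells the empty plasmid, with the genotype given as WT. TR11B is the protein database entry name of osteoprotegerin, a decoy receptor encoded by TNFRSF11B. Each knockout has a single column name with a replicate number, so a knockout cannot be separated from its guide or clone.

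NRF2 is a transcription factor that KEAP1, a subunit of a CUL3 ubiquitin ligase, normally marks for degradation. When oxidants or electrophiles modify KEAP1, or when KEAP1 is mutated, NRF2 accumulates, pairs with a small MAF protein and binds antioxidant response elements near its targets. These targets make and use glutathione and thioredoxin, supply NADPH, reduce quinones and aldehydes, store iron, degrade haem and pump conjugates out of the cell. In lung tumours this programme is known for resistance to oxidants and to chemotherapy.

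The core of the element was searched in the RefSeq promoters of GRCh38.p14 as TGACNNNGC on both strands, from 250 bases before to 50 bases after each gene's start. Promoters were found for 23 of the 34 members, and 6 of them (26.1%) held the core, against 13.6% of the 27305 promoters and 14.7% of the 14396 promoters of genes in the count table. The 6 were GCLM, GPX2, TXNRD1, PGD, ME1 and CBR1. In ME1 the match TGACTCAGC also contains TGACTCA, the letters of the AP-1 site. A match is only a run of letters. The following 4 promoters are shown because the same core precedes genes with different results: TXNRD1 was higher in OGT_KO than in NC, GCLM was lower in TR11B_KO than in NC, CBR1 was lower in OGT_KO than in TR11B_KO, and GPX2 was almost without reads. They cover the 250 bases before the start and the start base, at chr12:104215529-104215779 (plus strand, TXNRD1), chr1:93909430-93909680 (minus strand, GCLM), chr21:36069774-36070024 (plus strand, CBR1) and chr14:64942745-64942995 (minus strand, GPX2) of GRCh38.p14, 5′ to 3′ on the gene's strand. Capitals mark the core or its reverse complement.
TXNRD1: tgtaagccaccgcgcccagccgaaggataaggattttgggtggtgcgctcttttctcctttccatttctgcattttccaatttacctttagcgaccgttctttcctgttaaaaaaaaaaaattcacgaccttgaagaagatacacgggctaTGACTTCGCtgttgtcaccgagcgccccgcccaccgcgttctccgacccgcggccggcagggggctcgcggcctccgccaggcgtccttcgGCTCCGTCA
GCLM: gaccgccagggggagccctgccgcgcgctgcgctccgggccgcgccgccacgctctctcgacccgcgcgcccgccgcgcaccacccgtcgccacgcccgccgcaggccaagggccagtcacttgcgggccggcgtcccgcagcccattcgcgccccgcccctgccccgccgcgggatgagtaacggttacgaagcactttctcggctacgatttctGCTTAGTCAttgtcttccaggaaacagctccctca
CBR1: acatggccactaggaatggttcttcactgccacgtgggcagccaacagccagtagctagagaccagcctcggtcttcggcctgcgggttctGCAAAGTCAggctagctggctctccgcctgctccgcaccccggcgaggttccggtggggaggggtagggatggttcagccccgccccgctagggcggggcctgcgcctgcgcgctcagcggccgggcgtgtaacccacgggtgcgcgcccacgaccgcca
GPX2: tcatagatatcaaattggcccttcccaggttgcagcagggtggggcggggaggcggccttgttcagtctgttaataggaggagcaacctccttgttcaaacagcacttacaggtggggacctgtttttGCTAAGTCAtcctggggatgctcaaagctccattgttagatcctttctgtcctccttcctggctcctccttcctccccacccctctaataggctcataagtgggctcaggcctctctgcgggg

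Several facts of the libraries bear on what follows. Library totals were 38327508 to 42245970 counts. TR11B_KO replicate 2 stood apart, with a TMM factor of 0.784 against 0.951 to 1.159 in the other libraries and 14128 genes with a count against 14581 to 14954. The mRNA counts of the targeted genes did not follow the labels in a simple way. Protein was not measured, and mRNA counts alone cannot show whether a knockout worked. OGT had 927, 1255 and 960 counts in the libraries labelled OGT_KO, 716, 356 and 484 in TR11B_KO and 1239, 1143 and 967 in NC, so that its log2 fold change was -0.17 ± 0.21 (SE, adjusted p = 0.607) in OGT_KO and -0.99 ± 0.21 (adjusted p = 0.00393) in TR11B_KO against NC. TNFRSF11B had 1, 0 and 0 counts in OGT_KO, 3, 1 and 0 in TR11B_KO and 13, 15 and 3 in NC, too few to be tested. In TR11B_KO against NC shorter genes had higher fold changes, with a rank correlation of log2 fold change with gene length of -0.313 across the 12574 tested genes. The correlation was 0.066 in OGT_KO against NC and 0.333 in OGT_KO against TR11B_KO. Genes are not independent replicates, and these values only describe the trend. The median length was 2528 bases in the tested members, while in all tested genes it came to 3965, and results were therefore also fitted with an offset for gene length. With this offset and without TR11B_KO replicate 2, OGT was at -0.61 (adjusted p = 0.00755) in TR11B_KO against NC. In OGT_KO against TR11B_KO it was then at 0.29 (adjusted p = 0.183), and at 0.68 (adjusted p = 0.00279) without that library alone.

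The label was checked against the data, and parts of it did not hold. AKR1B10, AKR1C1, AKR1C2, AKR1C3 and ALDH3A1, reductases and a dehydrogenase that serve as read-outs of NRF2 in A549, had at most 6 counts in any library. CDKN2A, a locus that A549 is known to have lost from both chromosomes, had 4173 to 9775 counts (23.3 to 50.4 FPKM). MTAP beside it was low, with 88 to 272 counts (0.195 to 0.568 FPKM). The epithelial marker CDH1 was at 0 in all 9 libraries and EPCAM at 0 in 7 of them, whereas the keratins KRT8, KRT18 and KRT7 were abundant. KRT8 averaged 5778 CPM in OGT_KO, 9924 in TR11B_KO and 11462 in NC, KRT18 3241, 6756 and 6162 CPM and KRT7 4360, 3310 and 3300 CPM in the same order. All 7 epithelial markers together, of which KRT19 and CLDN4 averaged under 3 CPM, summed to 6646 to 7675 FPKM in OGT_KO, 8757 to 10988 in TR11B_KO and 10687 to 12141 in NC. The part of this difference in the members' results was not tested. ALDH1A1, another gene known to be high in A549, had at most 7 counts. CDKN2A and MTAP were picked with their values seen. The 2 alveolar type II markers in the table summed to at most 0.119 FPKM in a library. Markers of endothelium and fibroblasts summed to at most 0.0857 and 0.139 FPKM, and those of leukocytes to 2.31 to 2.63 FPKM in OGT_KO, 1.60 to 2.08 in TR11B_KO and 2.15 to 3.84 in NC, nearly all from CD68. The cells are therefore called cells labelled A549, and the members are called by name and not as constitutively high genes.

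Of the 32 members in the table, 25 passed the filter on low counts and were tested. The other 7 were GPX2, a glutathione peroxidase, the ketone and aldehyde reductases AKR1B10, AKR1C1, AKR1C2 and AKR1C3, the aldehyde dehydrogenase ALDH3A1, and ABCC2, an exporter of conjugates. Their summed counts were 4 in OGT_KO, 22 in TR11B_KO and 8 in NC over 3 libraries each. AKR1C2 had no count in any library, which allows up to 3 counts, or 0.071 to 0.0783 CPM (counts scaled to a library of 1e6) on unscaled library totals. AKR1C1 and AKR1C2 are near-identical copies, and how reads shared by both were counted was not described.

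On the scale of FPKM, the authors' counts per length and library total, the other members ran from SLC7A11 to FTL. The 8 members with a mean over all libraries of at least 100 FPKM were FTL, FTH1, TKT, HMOX1, PRDX1, AKR1B1, TALDO1 and PGD. Those between 10 and 100 FPKM were KEAP1, NQO1, TXN, CBR1, OSGIN1 and SRXN1, and those between 1 and 10 were GSR, ABCC1, TXNRD1, ABCC3, NFE2L2 and CBR3. ME1, GCLM, UGDH and GCLC lay between 0.1 and 1 FPKM, and SLC7A11, the cystine importer, averaged 0.0712 FPKM. Among the members, GCLM, GCLC and SLC7A11 of glutathione synthesis were thus at the low end of the list. Members for iron storage and haem breakdown were at the high end, with the NADPH members at both. GSS, the glutathione synthetase, is not a member and was not low, with means of 143, 110 and 134 FPKM in OGT_KO, TR11B_KO and NC. The members together took 0.875 ± 0.0304% of the counts in OGT_KO, 0.730 ± 0.0617% in TR11B_KO and 0.844 ± 0.00607% in NC (SD, n = 3 each).

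**Figure D1:**
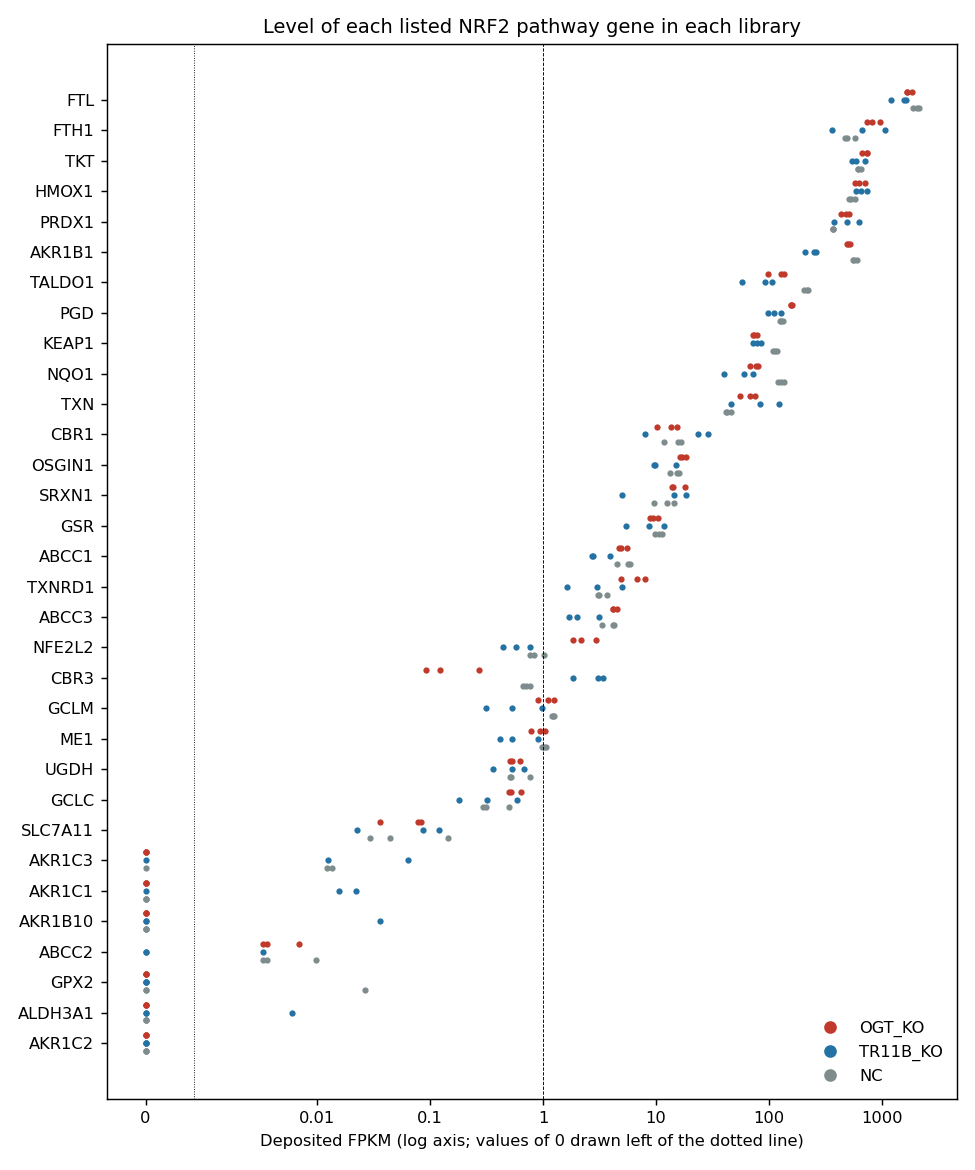
Deposited FPKM (log axis) of the 32 members in each of the 9 libraries, in order of their mean, with 1 point per library coloured by group. FTL is at the top with a mean of 1745 FPKM, and the 7 untested members lie at or near 0 in every group.

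Of the 25 tested members, 6 (24%) changed in OGT_KO against NC, 2 higher and 4 lower, where 18.3% of all 12574 tested genes changed, 8.26% higher and 10.1% lower. The higher genes were NFE2L2 and TXNRD1, and the lower ones KEAP1, NQO1, TALDO1 and CBR3. The median log2 fold change of the members was -0.193, against 0.032 for all tested genes. The 3 OGT_KO libraries did not overlap the 3 NC libraries for 15 members (60%), against 49.8% of all tested genes. In TR11B_KO against NC, 8 members (32%) changed, 3 higher and 5 lower, where 27.6% of all tested genes changed, 13.2% higher and 14.3% lower. CBR3, TXN and PRDX1 were higher, and TALDO1, NQO1, AKR1B1, GCLM and ABCC1 were lower. The members' median was -0.069, against -0.01 for all tested genes, and 12 members (48%) did not overlap, against 40.9% of all genes. With the length offset, 1 member was higher (CBR3) and 4 were lower (AKR1B1, FTL, NQO1 and TALDO1), and the calls over all genes numbered 2790. Without TR11B_KO replicate 2, 6 were higher and 8 lower in TR11B_KO, and 4 higher and 5 lower in OGT_KO, while all genes called were then 4386 in TR11B_KO against 3469 with it, and 4536 in OGT_KO against 2303. Both comparisons share the NC libraries. In bulk RNA, fewer cells that express a gene and less of its RNA per cell cannot be told apart.

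The direct comparison of OGT_KO with TR11B_KO called 5 members (20%), where 33.2% of all tested genes were called, 16.7% higher and 16.5% lower in OGT_KO. NFE2L2, AKR1B1 and TXNRD1 were higher in OGT_KO, and CBR3 and CBR1 were lower. The groups did not overlap for 7 members (28%), against 44.9% of all tested genes. The median was 0.075, against 0.056 for all genes. Without TR11B_KO replicate 2, 5 members were higher and 4 lower, and all genes called numbered 5307, against 4174 with it.

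**Figure D2:**
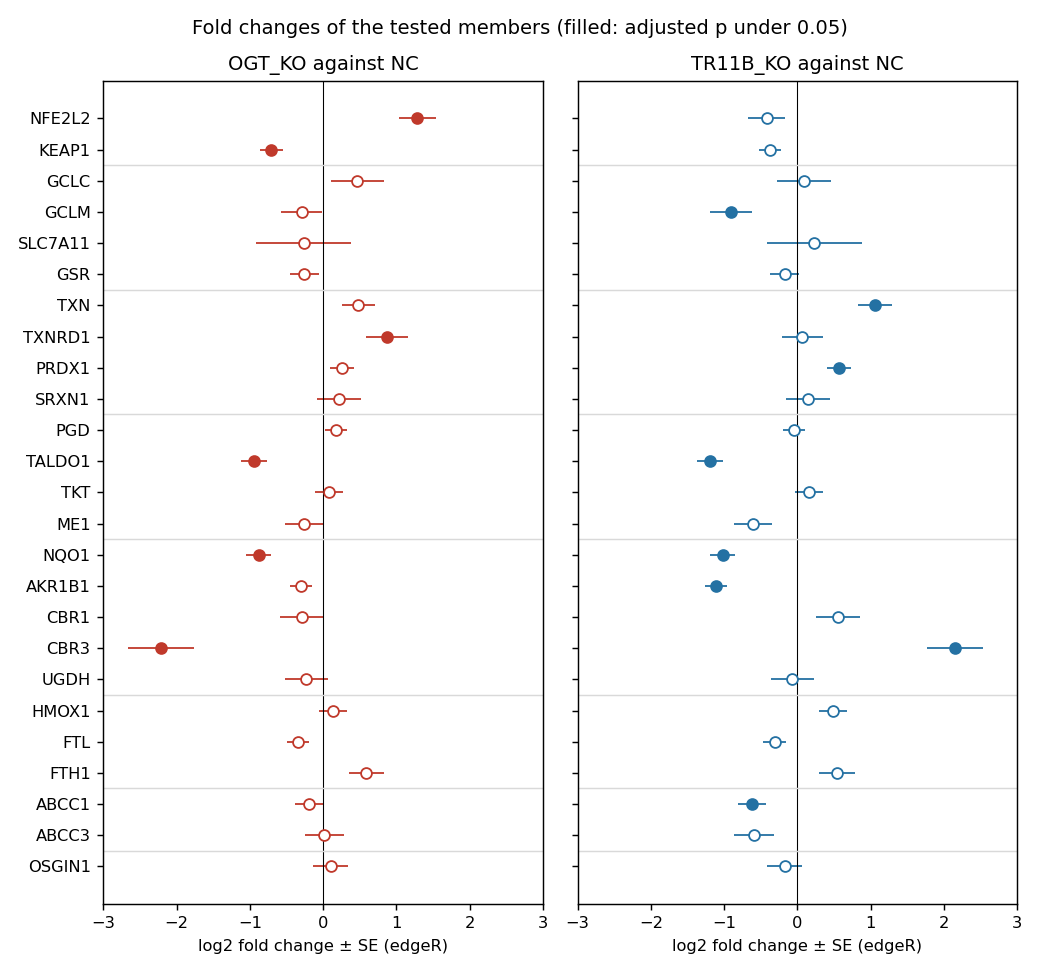
Log2 fold changes against NC (edgeR, bars of 1 SE) of the 25 tested members, OGT_KO at left and TR11B_KO at right, filled where the adjusted p was under 0.05. CBR3 lies at -2.21 in OGT_KO and at 2.15 in TR11B_KO, and TALDO1 and NQO1 are filled and below 0 in both panels.

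NFE2L2 mRNA was raised in OGT_KO, and KEAP1 mRNA was lowered there. NFE2L2 had 5.55, 8.06 and 6.52 CPM in OGT_KO, 1.83, 1.77 and 2.54 CPM in TR11B_KO and 2.41, 2.61 and 3.22 CPM in NC, in the order of replicates 1 to 3, as in all lists of 3 values here. Every OGT_KO library lay above every TR11B_KO and NC library, and the TR11B_KO and NC libraries overlapped. NFE2L2 mRNA was higher by a log2 fold change of 1.29 ± 0.25 in OGT_KO against NC (adjusted p = 0.00322) and of 1.71 ± 0.26 against TR11B_KO (adjusted p = 0.000265). In TR11B_KO against NC its value was -0.42 ± 0.26 (adjusted p = 0.237). KEAP1 had 224, 194 and 210 CPM in OGT_KO, 259, 281 and 248 CPM in TR11B_KO and 353, 332 and 339 CPM in NC. The 3 groups did not overlap, with OGT_KO lowest and NC highest. KEAP1 fell in OGT_KO by 0.71 ± 0.15 on the log2 scale (adjusted p = 0.00619). Its value in TR11B_KO against NC was -0.38 ± 0.15 (adjusted p = 0.0785, and 0.0235 without TR11B_KO replicate 2), and in OGT_KO against TR11B_KO -0.33 ± 0.15 (adjusted p = 0.109). These values are mRNA levels. The KEAP1 sequence and the NRF2 protein, which KEAP1 regulates, were not measured.

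Of the 4 tested glutathione genes, none was called in OGT_KO against NC and 1 (25%), GCLM, in TR11B_KO against NC. Of all tested genes 18.3% and 27.6% were called in these comparisons. GCLM, the modifier subunit of the enzyme that makes the first intermediate of glutathione, had 6.62, 6.89 and 5.40 CPM in OGT_KO, 6.21, 2.52 and 3.56 CPM in TR11B_KO and 7.53, 7.77 and 7.90 CPM in NC. All TR11B_KO libraries were below all NC libraries, and replicate 2 was the lowest. GCLM was lower in TR11B_KO than in NC, with a log2 fold change of -0.91 ± 0.29 (adjusted p = 0.0303), but -0.66 (adjusted p = 0.0907) with the length offset. GCLC, the catalytic subunit of the same enzyme, lay between 0.871 and 2.24 CPM over the 9 libraries, and SLC7A11 between 0.231 and 1.39 CPM. GSR, which reduces oxidised glutathione, lay between 21.1 and 35.6 CPM. None of these other 3 genes was called in any of the 3 comparisons, with adjusted p from 0.392 to 0.881, GSR included.

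Of the 4 tested thioredoxin genes, 1 (25%) was called in OGT_KO and 2 (50%) in TR11B_KO against NC, in different members. Of all tested genes 18.3% and 27.6% were called, and 4 genes are too few to set against these shares. TXNRD1, the reductase that recharges thioredoxin with NADPH, had 19.6, 29.5 and 27.5 CPM in OGT_KO, 21.5, 8.77 and 13.5 CPM in TR11B_KO and 15.5, 13.3 and 13.0 CPM in NC. OGT_KO was above NC in every library but overlapped TR11B_KO. TXNRD1 was higher in OGT_KO than in NC by 0.87 ± 0.28 (adjusted p = 0.0443), and had a log2 fold change of 0.81 ± 0.28 against TR11B_KO (adjusted p = 0.0398). The call against NC was lost in 12 of 21 alternatives, including the omission of any OGT_KO or NC library (adjusted p from 0.0568 to 0.167). The call against TR11B_KO was lost with the length offset, among others. TXN, thioredoxin itself, had 38.2, 47.5 and 47.5 CPM in OGT_KO, 90.7, 43.4 and 65.0 CPM in TR11B_KO and 30.6, 30.9 and 33.9 CPM in NC. It was above NC in every library of both knockouts, and most variable in TR11B_KO. TXN was higher in TR11B_KO by 1.06 ± 0.23 (adjusted p = 0.00461), with 0.47 (adjusted p = 0.15) under the length offset, and its value in OGT_KO was 0.48 ± 0.23 (adjusted p = 0.158). Its OGT_KO value was called without TR11B_KO replicate 2 (0.48, adjusted p = 0.00807), but not with the length offset as well (0.33, adjusted p = 0.0738). PRDX1, a peroxidase that thioredoxin recharges, had 620, 537 and 524 CPM in OGT_KO, 798, 622 and 665 CPM in TR11B_KO and 468, 470 and 465 CPM in NC. Its groups did not overlap, with NC lowest and TR11B_KO highest. PRDX1 was higher in TR11B_KO by 0.57 ± 0.16 (adjusted p = 0.018), with 0.19 (adjusted p = 0.43) under the length offset, and its value in OGT_KO was 0.26 ± 0.16 (adjusted p = 0.276). SRXN1, which repairs overoxidised peroxiredoxins, lay between 16.2 and 46.3 CPM and was not called, with values of 0.22 in OGT_KO and 0.14 in TR11B_KO against NC. It was called higher in TR11B_KO against NC without TR11B_KO replicate 2, its lowest library.

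Among the NADPH genes, TALDO1 stood out. TALDO1, transaldolase of the non-oxidative pentose phosphate pathway, had 144, 141 and 113 CPM in OGT_KO, 128, 89.0 and 117 CPM in TR11B_KO and 265, 257 and 244 CPM in NC. Every knockout library was below every NC library, while the knockouts overlapped each other. TALDO1 was lower in both, with log2 fold changes of -0.95 ± 0.18 in OGT_KO (adjusted p = 0.00277) and -1.20 ± 0.18 in TR11B_KO (adjusted p = 0.000532). TKT, the transketolase that works beside it, had 2189, 1837 and 2231 CPM in OGT_KO, 1735, 2885 and 1960 CPM in TR11B_KO and 1934, 1916 and 2047 CPM in NC. The groups overlapped, and TKT was not called (0.09 ± 0.19 in OGT_KO and 0.16 ± 0.19 in TR11B_KO against NC). PGD, which makes NADPH in the oxidative branch, lay between 289 and 368 CPM, and ME1, the cytosolic malic enzyme, between 1.77 and 3.53 CPM. Neither was called in any comparison, with log2 fold changes against NC of 0.17 and -0.05 for PGD and of -0.26 and -0.60 for ME1 in OGT_KO and TR11B_KO.

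Quinone and carbonyl reductases held the second gene lowered in both knockouts and, among the tested members, the gene with the largest fold change between them. NQO1, a quinone reductase and the classical read-out of NRF2, had 190, 167 and 162 CPM in OGT_KO, 183, 128 and 158 CPM in TR11B_KO and 298, 320 and 337 CPM in NC. All 6 knockout libraries lay below all NC libraries. NQO1 was lower in both, with log2 fold changes of -0.88 ± 0.17 in OGT_KO (adjusted p = 0.00346) and -1.02 ± 0.17 in TR11B_KO (adjusted p = 0.00107). CBR3, a carbonyl reductase, had 0.364, 0.113 and 0.167 CPM in OGT_KO, 2.64, 6.16 and 4.64 CPM in TR11B_KO and 1.08, 0.942 and 0.996 CPM in NC. These rest on 16, 5 and 7 counts in OGT_KO, 111, 191 and 181 in TR11B_KO and 45, 40 and 39 in NC, and the 3 groups did not overlap. CBR3 was lower in OGT_KO than in NC (log2 fold change -2.21 ± 0.45, adjusted p = 0.00432) and higher in TR11B_KO than in NC (2.15 ± 0.38, adjusted p = 0.00136), with 1.89 (adjusted p = 0.000227) without TR11B_KO replicate 2. The direct difference of OGT_KO from TR11B_KO was -4.36 ± 0.44 on the log2 scale (adjusted p = 1.14e-05).

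CBR1, a related carbonyl reductase, did not follow it in every library. It had 23.5, 24.2 and 17.8 CPM in OGT_KO, 53.2, 18.9 and 45.7 CPM in TR11B_KO and 30.3, 28.4 and 21.5 CPM in NC. TR11B_KO replicate 2 lay within the range of OGT_KO, and the other 2 TR11B_KO libraries above all others. CBR1 was lower in OGT_KO than in TR11B_KO (-0.85 ± 0.30, adjusted p = 0.0441, and -1.21, adjusted p = 8.62e-07, without TR11B_KO replicate 2), but the call was lost in 15 of 21 alternatives. Its value in TR11B_KO against NC was 0.56 ± 0.30 (adjusted p = 0.185), with 0.92 (adjusted p = 7.09e-05) without that library. AKR1B1, aldose reductase, had 1082, 931 and 1053 CPM in OGT_KO, 554, 590 and 603 CPM in TR11B_KO and 1221, 1248 and 1310 CPM in NC. The groups were separate, with TR11B_KO far below the others. AKR1B1 was lower in TR11B_KO than in NC (-1.11 ± 0.15, adjusted p = 0.00031), and OGT_KO exceeded TR11B_KO by 0.81 ± 0.15 (adjusted p = 0.00123). Its value in OGT_KO against NC was -0.30 ± 0.15 (adjusted p = 0.176). UGDH, which makes the sugar acid used for glucuronidation, lay between 1.35 and 2.34 CPM and was not called.

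**Figure D3:**
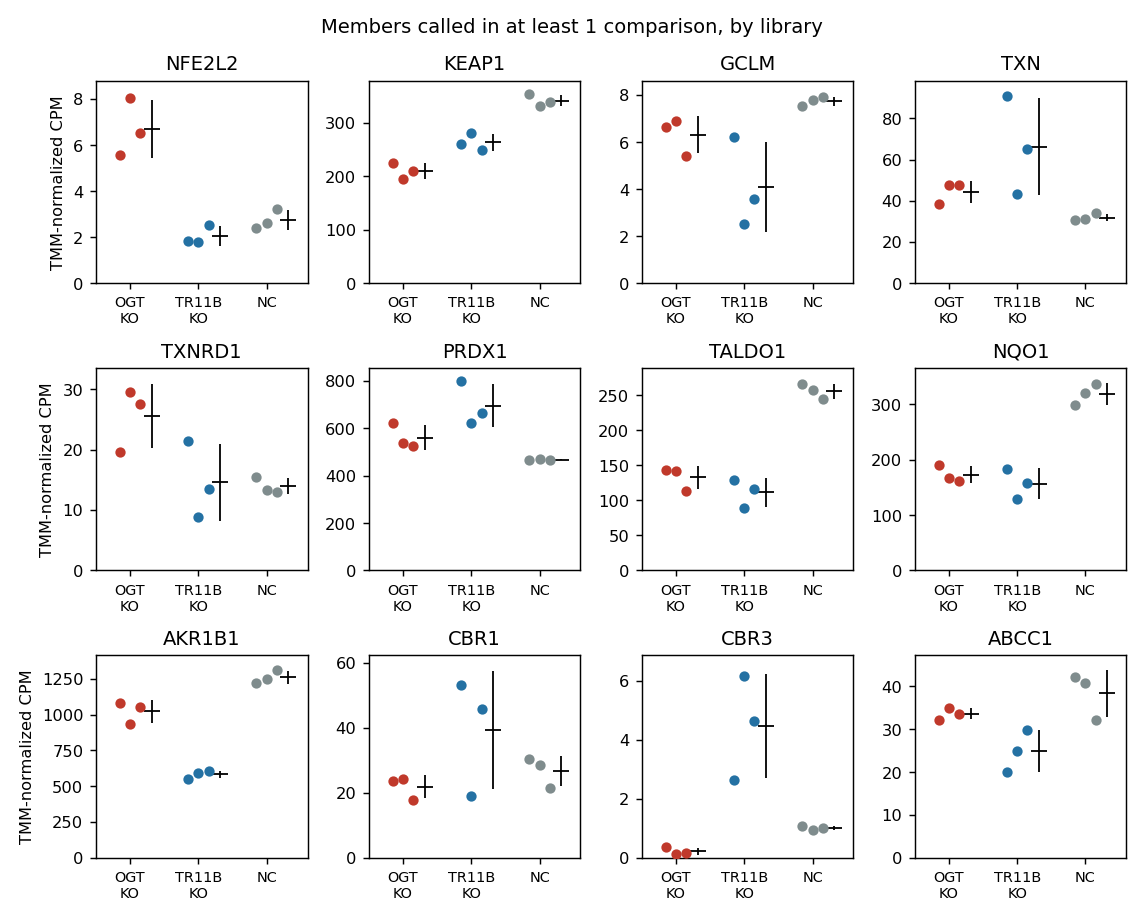
TMM-normalized CPM of each member called in at least 1 comparison, with 1 point per library in the order OGT_KO, TR11B_KO and NC, and the mean with 1 SD (n = 3) beside it. NQO1 and TALDO1 are below NC in all 6 knockout libraries, and CBR3 lies at 0.113 to 0.364 CPM in OGT_KO and 2.64 to 6.16 CPM in TR11B_KO.

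The 3 haem and iron members were abundant, and none was called in the comparisons as fitted. Of all tested genes 18.3% were called in OGT_KO against NC, 27.6% in TR11B_KO against NC and 33.2% between the knockouts. HMOX1, which breaks down haem, had 1032, 779 and 933 CPM in OGT_KO, 927, 1481 and 1082 CPM in TR11B_KO and 884, 797 and 822 CPM in NC. Its values against NC were 0.13 ± 0.19 (adjusted p = 0.67) in OGT_KO and 0.48 ± 0.19 (adjusted p = 0.075) in TR11B_KO, where all libraries lay above NC. FTL, the ferritin light chain, had 1517, 1252 and 1378 CPM in OGT_KO, 1374, 1347 and 1505 CPM in TR11B_KO and 1756, 1848 and 1645 CPM in NC. All 6 knockout libraries lay below NC. Its values were -0.34 ± 0.15 (adjusted p = 0.137) in OGT_KO and -0.31 ± 0.15 (adjusted p = 0.143) in TR11B_KO, and -0.84 (adjusted p = 0.00343) in TR11B_KO with the length offset. FTH1, the ferritin heavy chain, had 937, 1000 and 842 CPM in OGT_KO, 1285, 556 and 841 CPM in TR11B_KO and 585, 696 and 567 CPM in NC. OGT_KO was above NC in every library, and TR11B_KO replicate 2 was below all NC libraries. The values of FTH1 against NC were 0.59 ± 0.24 (adjusted p = 0.104) in OGT_KO and 0.54 ± 0.24 (adjusted p = 0.112) in TR11B_KO. Without TR11B_KO replicate 2 they were 0.59 (adjusted p = 0.000784) in OGT_KO and 0.82 (adjusted p = 5.6e-05) in TR11B_KO. FTL in OGT_KO was then called too, at -0.34 (adjusted p = 0.0281). All 9 libraries shared 1 fit, so leaving out a TR11B_KO library also moves the spread used for OGT_KO against NC.

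Of the exporters, ABCC1, a pump for glutathione conjugates, had 32.2, 34.8 and 33.6 CPM in OGT_KO, 20.1, 25.0 and 29.7 CPM in TR11B_KO and 42.1, 40.9 and 32.1 CPM in NC. TR11B_KO lay below every other library. ABCC1 was lower in TR11B_KO than in NC (-0.62 ± 0.19, adjusted p = 0.028), but -0.33 (adjusted p = 0.24) with the length offset. ABCC3, of the same family, lay between 9.90 and 25.1 CPM, and OSGIN1, a growth inhibitor induced by oxidative stress, between 18.7 and 37.1 CPM. Neither was called in the comparisons as fitted, with values against NC of 0.02 and -0.59 for ABCC3 and of 0.10 and -0.18 for OSGIN1 in OGT_KO and TR11B_KO. TR11B_KO replicate 2 was the highest of its group for both, at 23.1 CPM for ABCC3 and 37.1 CPM for OSGIN1. Both were called lower in TR11B_KO than in NC without that library. ABCC3 was also called lower there with library totals alone and in each limma fit.

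All 8 members called in TR11B_KO against NC were still called without TR11B_KO replicate 2. Their log2 fold changes were then 1.89 for CBR3, 1.32 for TXN, 0.67 for PRDX1, -1.03 for TALDO1, -0.87 for NQO1, -1.09 for AKR1B1, -0.63 for GCLM and -0.59 for ABCC1. The 5 members called between the knockouts were called without it too, with 1.59 for NFE2L2, 0.79 for AKR1B1, 0.52 for TXNRD1, -1.21 for CBR1 and -4.10 for CBR3. With all libraries and the length offset, NFE2L2 and AKR1B1 stayed higher and CBR3 lower in OGT_KO than in TR11B_KO. TXNRD1 and CBR1 were then not called, and TALDO1 was called higher.

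Gene length moved with the TR11B_KO results. The short genes TXN, with 737 bases, and PRDX1, with 1278, had lower fold changes with the length offset, and the long genes ABCC1, with 7250, and GCLM, with 6387, had fold changes nearer to 0. TALDO1, with 1199 bases, had -1.61 (adjusted p = 0.000164) with the offset, and NQO1, AKR1B1 and CBR3 kept their calls. With the offset and without TR11B_KO replicate 2, TXN was called at 0.70 (adjusted p = 0.00149) and CBR1 at 0.68 (adjusted p = 0.00374), whereas PRDX1 (0.26), GCLM (-0.43) and ABCC1 (-0.36) were not called. The part of length in these results was not tested otherwise.

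**Figure D4:**
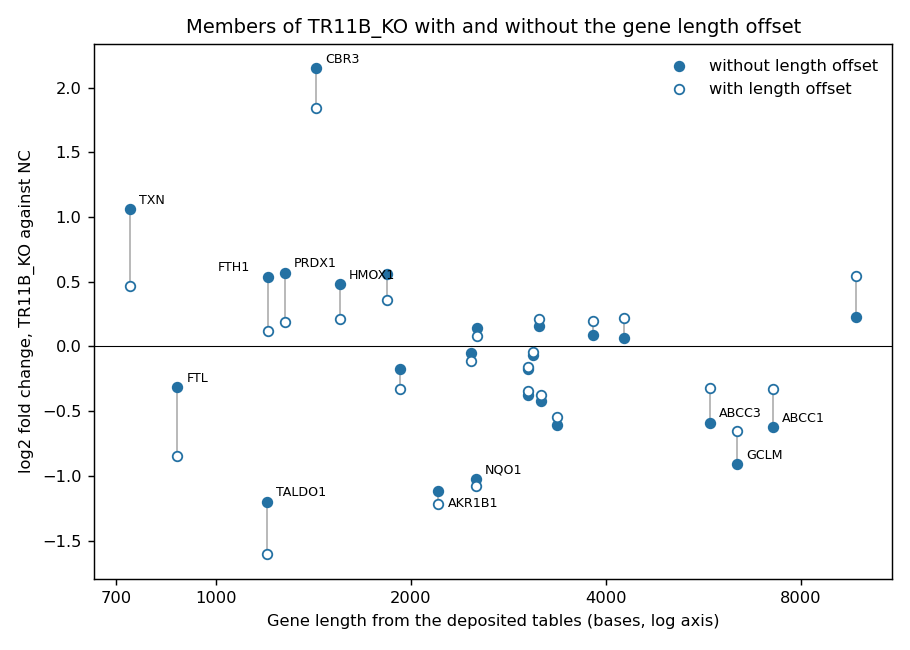
Log2 fold change in TR11B_KO against NC of the 25 tested members by gene length (log axis), without the length offset (filled) and with it (open), joined by a line for each gene. With the offset TXN lies at 0.47 and TALDO1 at -1.61, and without it they lie at 1.06 and -1.20.

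A further 91 genes of the same pathways were listed, and 81 were in the table and 68 tested. In OGT_KO against NC 13 changed (19.1%), 4 higher and 9 lower, a share near the 18.3% of all tested genes. Without TR11B_KO replicate 2, 27 changed, among 4536 genes called in all. The higher genes were PRDX2, a cytosolic peroxiredoxin, GPX4, which reduces lipid peroxides, GGT1, which splits extracellular glutathione, and GSTM3, a glutathione transferase. PRDX2 had 224, 178 and 199 CPM in OGT_KO against 63.3, 73.1 and 72.6 CPM in NC (1.52 ± 0.19, adjusted p = 0.000171), and GPX4 had 2371, 2008 and 2272 CPM against 1267, 1375 and 1332 CPM (0.74 ± 0.15, adjusted p = 0.00418). GGT1 had 3.71, 2.34 and 3.69 CPM in OGT_KO against 0.669, 0.424 and 0.869 CPM in NC (2.31 ± 0.36, adjusted p = 0.000738). None of these libraries overlapped between OGT_KO and NC. Among the lower genes were PGAM5, a mitochondrial phosphatase that binds KEAP1 (-1.19 ± 0.15, adjusted p = 0.00022), and the mitochondrial enzymes MTHFD2 (-1.45 ± 0.24, adjusted p = 0.00116) and IDH2 (-0.93 ± 0.17, adjusted p = 0.00227). NFE2L3 and NFE2L1, relatives of NRF2, were also lower (-1.15 and -0.61), as were TXNRD3, RPIA and BLVRB. KYNU, an enzyme of tryptophan breakdown, had 0 counts over the OGT_KO libraries against 39 over NC and 54 over TR11B_KO, which with a floor of 3 counts over the group makes it at least 13.7-fold lower than in NC.

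In TR11B_KO against NC 24 of the 68 further genes changed (35.3%), 18 higher and 6 lower, where 27.6% of all tested genes changed. With the length offset 11 were higher and 7 lower, and over all tested genes 1458 were higher and 1332 lower. Of the 12 tested genes for peroxide, superoxide and thioredoxin, 5 were higher and none was lower, against 13.2% and 14.3% of all tested genes. The fit with the length offset had 4 higher and 2 lower. PRDX4, the peroxiredoxin of the endoplasmic reticulum, had 378, 321 and 420 CPM in TR11B_KO against 163, 159 and 158 CPM in NC (1.22 ± 0.17, adjusted p = 0.000313). PRDX5 was higher by 1.21, PRDX2 by 1.14, SOD1, the cytosolic superoxide dismutase, by 1.04 and PRDX6 by 0.69. With the length offset PRDX4 (0.72), PRDX5 (0.69) and PRDX2 (0.64) were still called, whereas SOD1 (0.51, adjusted p = 0.0754) was not. BLVRB, a biliverdin reductase, had 160, 251 and 178 CPM in TR11B_KO against 83.0, 86.3 and 95.4 CPM in NC (1.16 ± 0.19, adjusted p = 0.00106). GPX4 was higher by 0.90, as it was in OGT_KO by 0.74. Without TR11B_KO replicate 2, PRDX4 (1.35), SOD1 (1.27), PRDX5 (0.96), PRDX2 (0.96), BLVRB (0.97) and GPX4 (0.90) were still called. With the length offset as well, all were called but at smaller values. These were 0.81 for PRDX4, 0.70 for SOD1, 0.40 for PRDX5, 0.41 for PRDX2, 0.38 for BLVRB (adjusted p = 0.0442) and 0.44 for GPX4. The lower genes included ABCC4, an exporter of cyclic nucleotides (-1.41 ± 0.27, adjusted p = 0.0022), CREBBP, a coactivator of NRF2 (-1.25 ± 0.27, adjusted p = 0.00425), TRIM16 (-0.76) and the transferrin receptor TFRC (-0.70). With the length offset and without TR11B_KO replicate 2, ABCC4 (-1.08, adjusted p = 0.00316) and CREBBP (-0.95, adjusted p = 0.00222) were still called. TFRC (-0.41, adjusted p = 0.0702) was not.

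Between the knockouts 34 of the 68 further genes differed (50%), 10 higher and 24 lower in OGT_KO, where 33.2% of all tested genes differed. With the length offset 10 were higher and 14 lower, and over all tested genes 1454 were higher and 2068 lower. Of the 7 tested NADPH genes of this further list, 6 were lower in OGT_KO, against 16.5% of all tested genes. With the length offset 4 were lower. The 4 tested NADPH members did not share this, with 0 called lower and a median log2 fold change of 0.237, against 0.056 for all tested genes. IDH2, which makes NADPH in mitochondria, had 15.9, 16.7 and 15.7 CPM in OGT_KO and 46.0, 50.4 and 43.8 CPM in TR11B_KO (-1.54 ± 0.17, adjusted p = 2.71e-05). BLVRB differed by -2.06 ± 0.20 (adjusted p = 7.83e-06), SOD1 by -1.54 ± 0.20 (adjusted p = 8.6e-05) and PRDX4 by -1.44 ± 0.17 (adjusted p = 3.81e-05), all with separate groups. GGT1 was higher in OGT_KO by 2.80 ± 0.37 (adjusted p = 0.000107), SQSTM1, which sequesters KEAP1, by 0.75 ± 0.17 (adjusted p = 0.00375), and PPARG by 1.51 ± 0.39 (adjusted p = 0.00912). With the length offset and without TR11B_KO replicate 2, IDH2 was at -1.39, BLVRB at -1.43, SOD1 at -1.34 and PRDX4 at -1.16. GGT1 was then at 2.76 and PPARG at 0.81 (adjusted p = 0.0301), and all of these were still called.

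**Figure D5:**
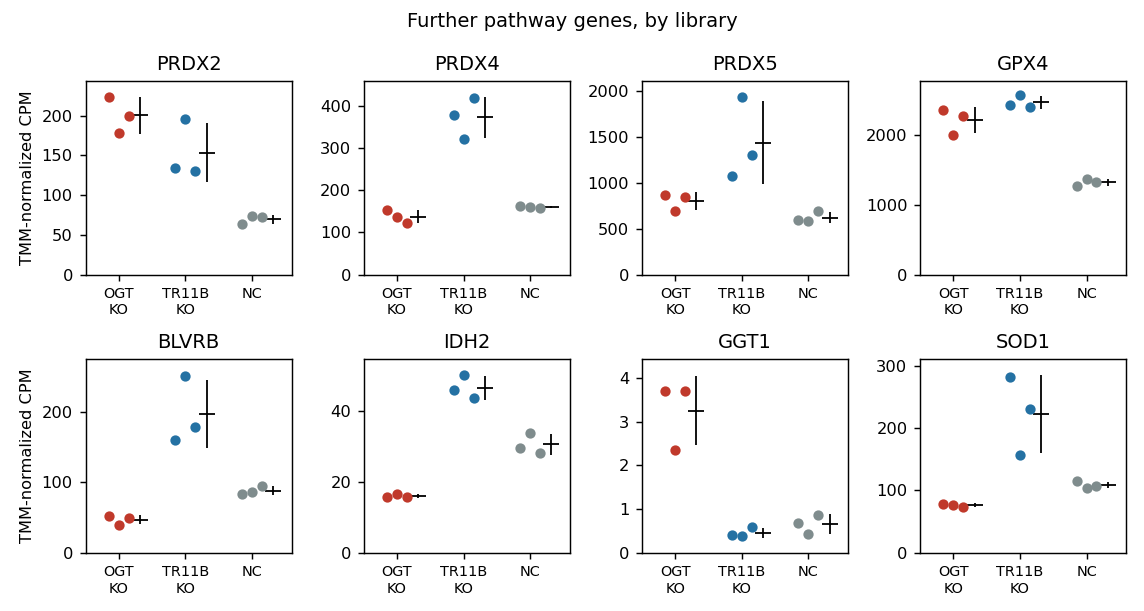
TMM-normalized CPM of 8 further genes of the pathway, with 1 point per library in the order OGT_KO, TR11B_KO and NC, and the mean with 1 SD (n = 3) beside it. IDH2, BLVRB, SOD1 and PRDX4 are lower in OGT_KO than in TR11B_KO in every library, and GGT1 is higher in OGT_KO.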

How the data were processed

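RNA-seq of 9 libraries was analysed, 3 each of OGT_KO, TR11B_KO and NC, with groups and replicate numbers taken from the sample titles. The build was GRCh38, and fastp, HISAT, HTSeq, DESeq2 and R 3.2.0 were used, per the submitters' processing notes, which give no role or setting. The deposited counts are whole reads per gene with no normalization, and a second table deposited by the authors holds FPKM, per gene length and library total. Gene length was taken from the ratio of the 2 tables and was whole to 0.01 base in 17919 of the 17923 genes with a count. The labels and notes do not say whether counting used strand, or how it treated reads shared by close copies or overlapping genes.

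The counts were fitted in edgeR 4.0.16 under R 4.3.3 (filterByExpr, TMM, robust quasi-likelihood F test, all 9 libraries, 1 mean per group). Benjamini-Hochberg adjustment ran over the 12574 tested genes, with calls at an adjusted p under 0.05. The median prior degrees of freedom were 8.32 and the biological coefficient of variation 0.241. SE is the size of the log2 fold change over the root of F. Levels are CPM of TMM-scaled totals. The sample titles call the replicates biological (biol rep), but do not say whether they came from separate cultures. The p-values therefore cover only the spread among these libraries, part of which can be technical. Replicate counts differed by more than sampling noise (chi-square per degree of freedom 9.6 to 318.6). The fits were also run on simulated counts drawn from the NC means with the same fixed spread for every gene. These counts had no length trend and no outlying library, so they cannot show how the fits handle either.

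The members and lists were chosen with earlier results of these data known. Values in every library were given for NFE2L2, KEAP1, each called member and the 5 members with the highest mean FPKM. Of the further genes, those called with an absolute log2 fold change of at least 1, and the 6 with the smallest adjusted p per comparison, could be named. Others were named after their values were seen: PRDX6, RPIA, NFE2L1, BLVRB in OGT_KO, SQSTM1, TRIM16, TFRC in TR11B_KO, GSS, CDKN2A and MTAP. Promoters and their positions are RefSeq's, from GRCh38.p14. Alternatives were library totals alone, RLE factors, no filter on low counts, CPM of at least 1 in 3 libraries, DESeq2 1.42.0, only the compared groups, the replicate number as a block, a gene length offset (lowess, span 0.3), limma 3.58.1 on log2(FPKM + 1) and log2(FPKM + 0.1), and each library left out.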

Additional observations from a re-analysis of the deposited data

How the results depend on the processing

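The counts of called members and further genes, and the fold changes of 37 of the named genes, were recomputed under 21 alternatives, 20 of them planned and the last, the length offset without TR11B_KO replicate 2, chosen after seeing the data. NFE2L2, KEAP1, NQO1 and TALDO1 in OGT_KO against NC, and CBR3, NQO1, TALDO1 and AKR1B1 in TR11B_KO against NC, kept their calls in all of them. CBR3 in OGT_KO lost its call only in limma on log2(FPKM + 1) with no filter (adjusted p = 0.0581). Over the fold changes of those 37 genes, 2095 values stayed on their side of the threshold, 43 of them with a change of sign and no call in either fit, while 135 lost a call and 96 gained one. A change of sign with a call in a fit occurred once, for FTL in OGT_KO against TR11B_KO, 0.34 (adjusted p = 0.0454) with the length offset without TR11B_KO replicate 2, against -0.03. The causes were not tested.

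Members higher in OGT_KO against NC numbered 2, but 1 with library totals alone, with the replicate block and with each of the 3 limma fits, 5 with only the compared groups, and 1 to 4 with a library left out. Further genes called there numbered 13, but 31 with only the compared groups, 30 with the length offset without TR11B_KO replicate 2, and 9 to 27 with a library left out. All genes called there moved too, from 2303 to 5095 with only the compared groups and 4443 with that offset. With a library left out they numbered 1072 to 4536. Members higher in TR11B_KO against NC numbered 3, but 6 with no low-count filter, 1 with the length offset and with each limma fit, and 2 to 6 with a library left out. Those lower numbered 5, but 3 with only the compared groups, 8 with limma on log2(FPKM + 1) and on log2(FPKM + 0.1), and 3 to 8 with a library left out. Further genes called numbered 24, but 13 with only the compared groups, 15 with unfiltered limma and 12 to 32 with a library left out, with the 12 coming without NC replicate 1. All genes called in TR11B_KO against NC numbered 3469, but 2251 with only the compared groups and 2535 with unfiltered limma. With a library left out they numbered 1813 to 4463. Members higher in OGT_KO against TR11B_KO numbered 3, but 7 with library totals alone, with filtered limma and with the length offset without TR11B_KO replicate 2, 6 with unfiltered limma, and 2 to 5 with a library left out. Those lower numbered 2, but 5 with DESeq2, 1 with library totals alone, only the compared groups, the replicate block, the length offset and limma, and 1 to 4 with a library left out. Further genes numbered 34 there, and 21 to 37 with a library left out. All genes called between the knockouts numbered 4174, and 2401 to 5307 with a library left out. Library totals alone moved the median of all genes to 0.147 in OGT_KO against NC and 0.314 in OGT_KO against TR11B_KO.

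Same-numbered libraries did not deviate together (correlations of 0.069 at most and -0.199 at least), so the numbers were not taken to pair samples. With the replicate block, TXNRD1 in OGT_KO against NC (adjusted p = 0.0665) and ABCC1 in TR11B_KO against NC (adjusted p = 0.0616) missed the threshold, as did TXNRD1 (0.0511), CBR1 (0.0734) and GSTM3 (0.0603) between the knockouts. Depth limits the 7 untested members and CBR3 in OGT_KO, with 5 to 16 counts per library.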
